A study of Rattus norvegicus with 32 samples.

Results

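Actin and the proteins that bind its subunits were followed as mRNAs in the dendrites and the soma of single rat neurons. The 10 genes are among the 17216 gene rows of each count table and were found by symbol: the cytoplasmic actins Actb and Actg1, the actin-depolymerizing genes Cfl1 and Dstn, the profilins Pfn1 and Pfn2, the beta-thymosins Tmsb4x and Tmsb10, the Arp2/3 subunit Arpc2 and the drebrin gene Dbn1. All 10 rows were present and all 10 passed the filter on low counts, which kept 4916 genes in all. The study holds 32 libraries, from the dendrites and the soma of each of 16 neurons, and the number in a library's title pairs the samples of 1 cell. The neurons are wild-type hippocampal cells of Sprague Dawley rats, labelled pyramidal, prepared at embryonic day 18 and kept in culture for 15 days. The labels name no drug, engineered allele or transgene, and age, strain and time in culture were the same for both compartments. Each compartment was drawn into its own micropipette, and its polyadenylated RNA went through 3 rounds of antisense RNA amplification, which copies RNA by in vitro transcription. Collection spanned more than 1 culture and day, and the culture behind each neuron is not given in the sources used here.

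Actin exists in cells as single subunits and as filaments, and its filaments fill growth cones and dendritic spines. Beta-thymosins hold subunits in reserve, profilins hand them to growing filament ends, cofilin and destrin take old filaments apart, the Arp2/3 complex starts side branches, and drebrin coats filaments in spines. The mRNA of beta-actin is a classic case of RNA transport in neurons: a short element in its 3' end, known as the zipcode, binds the protein encoded by Igf2bp1, which helps carry it into growing processes. Serum response factor, a transcription factor that answers to the pool of free actin subunits, binds the CArG box in the promoters of several actin genes.

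RefSeq promoter windows, from 250 bases before to 50 after the annotated start on build GRCr8, were matched by symbol for 9 of the 10 genes. The window of Actb was not analysed here. A CArG box, a run of A and T bases between CC and GG that reads the same way on both strands, was found in the window of Actg1 alone among the 9, and in 1.64% of all 33469 windows. The motif TATAA, sought on both strands, was found in the window of Tmsb10 alone among the 9, and in 26.2% of all windows. The last 120 bases before the start are shown for Actg1, on the minus strand at chr10:106120952-106121071, since it carries the CArG box, given in capitals, and for Tmsb4x, on the plus strand at chrX:30761491-30761610, as a member whose window held neither motif.
Actg1: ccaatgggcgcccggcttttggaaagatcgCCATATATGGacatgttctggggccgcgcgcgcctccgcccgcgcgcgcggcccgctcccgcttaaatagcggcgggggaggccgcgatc
Tmsb4x: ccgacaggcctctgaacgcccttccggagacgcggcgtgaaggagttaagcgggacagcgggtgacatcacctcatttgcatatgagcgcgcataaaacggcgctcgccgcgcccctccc
The CArG box of Actg1 began 90 bases before the start. A match of letters is a description of the window and not a measured binding site.

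Gene counts per library lay between 229149 and 24439800 in dendrites and between 878125 and 24721800 in soma, and the dendrites were the deeper library in 2 of 16 neurons. Levels below are CPM, the gene's share of the library's gene counts scaled to counts per 1e+06, while fold changes and tests use TMM normalization, which rescales libraries by the genes they share. CPM is a share of a library, so less of 1 mRNA and more of the others cannot be told apart. The dendrites of neuron 20 stood apart, with a TMM factor of 0.160 against 0.667 to 1.75 in the other 31 libraries, and the lowest ratio of gene to spike-in counts, 22.1, against a median of 255 in dendrites and of 190 in soma. Both libraries of neuron 25 were the shallowest of their compartment. By the correlation of centred profiles, 5 of 16 dendrite libraries and 7 of 16 soma libraries were most like the library of their own number, and the other 11 dendrite and 9 soma libraries were most like another. The highest of these values were among neurons 7, 8 and 9, where the dendrites of neuron 9 were most like the soma of neuron 7, the dendrites of neuron 7 most like the soma of neuron 9, and the soma of neuron 8 most like the dendrites of neuron 9. An exchange of labels among these 3 neurons was not tested. Pairs were kept as labelled, and results are also given without these neurons. Neurod6, which encodes a transcription factor of excitatory forebrain neurons, reached 10 counts in all 16 dendrite and all 16 soma libraries. Slc17a7, the vesicular glutamate transporter gene, reached them in 2 dendrite and 5 soma libraries. Of the other pyramidal markers, Bcl11b reached them in 16 dendrite and 14 soma libraries, Neurod2 in 12 and 7, and Camk2a in 4 and 5. Gad1, a GABA-synthesizing enzyme gene, reached 10 counts in 11 dendrite and 7 soma libraries, the most among the 8 inhibitory neuron markers. Slc32a1 reached them in 6 dendrite and 6 soma libraries, Gad2 in 2 and 2, and Dlx2 in 0 of either. Not every marker thus goes with the label pyramidal. The 10 genes together held between 0.336% and 1.21% of gene counts in dendrites, with a median of 0.675%, and between 0.210% and 1.14% in soma, with a median of 0.474%. The highest dendrite share was that of neuron 25. Tmsb4x made up the largest part, with a mean of 3837 CPM in dendrites and 2774 CPM in soma. Mean CPM of Actb, Pfn1, Dstn and Arpc2 was lower in dendrites, and that of the other genes was higher.

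The comparison of dendrites with soma asked whether mRNAs of the actin machinery differ in relative abundance between the compartments of 1 cell. None of the 10 genes passed the test, and none did under any alternative run or in the 16 fits that each left out 1 neuron. Both actin mRNAs, with Cfl1, Tmsb4x, Tmsb10 and Arpc2, were present at 10 or more counts in every dendrite and every soma library, a property of 6 of the 10 genes and 11.2% of all tested genes. This share rises with level, and was 40.9% among the 1164 tested genes with a mean CPM at or above that of Actg1. The beta-thymosins and drebrin had the highest fold changes, at 1.08 for Tmsb10, 0.66 for Dbn1 and 0.57 for Tmsb4x on the log2 scale, and their mRNAs stood higher in dendrites in 12, 12 and 11 of 16 neurons by TMM.

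Of the 4916 tested genes, 0% passed an adjusted p of 0.05 in edgeR's quasi-likelihood test with the neuron as a block, and 0 of the 10 genes did. At an unadjusted p under 0.05, 2.62% of all tested genes and 0 of the 10 stood out. DESeq2's Wald test called 8.20% of the tested genes and 0 of the 10. Positive fold changes were found for 7 of the 10 genes and 54.8% of all tested genes. The median log2 fold change was 0.22 over the 10 genes and 0.13 over all tested genes. Their order turned with limma-voom, at 0.075 over the 10 genes and 0.20 over all tested genes, with no filter on low counts, at 0.18 over the 10 genes and 0.32 over all, and without neurons 7 or 22, while the median of the 10 genes reached 0.45 without neuron 11. The median SE was 0.60 for the 10 genes, 1.53 for all tested genes and 0.80 for tested genes with a mean CPM at or above that of Actg1. Without neurons 7, 8 and 9 the fold changes lay between -0.49 for Arpc2 and 0.94 for Tmsb10, and without neuron 20 between -0.17 for Arpc2 and 0.94 for Tmsb10, with edgeR adjusted p of 0.999 and 1.00 for each gene.

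**Figure D1:**
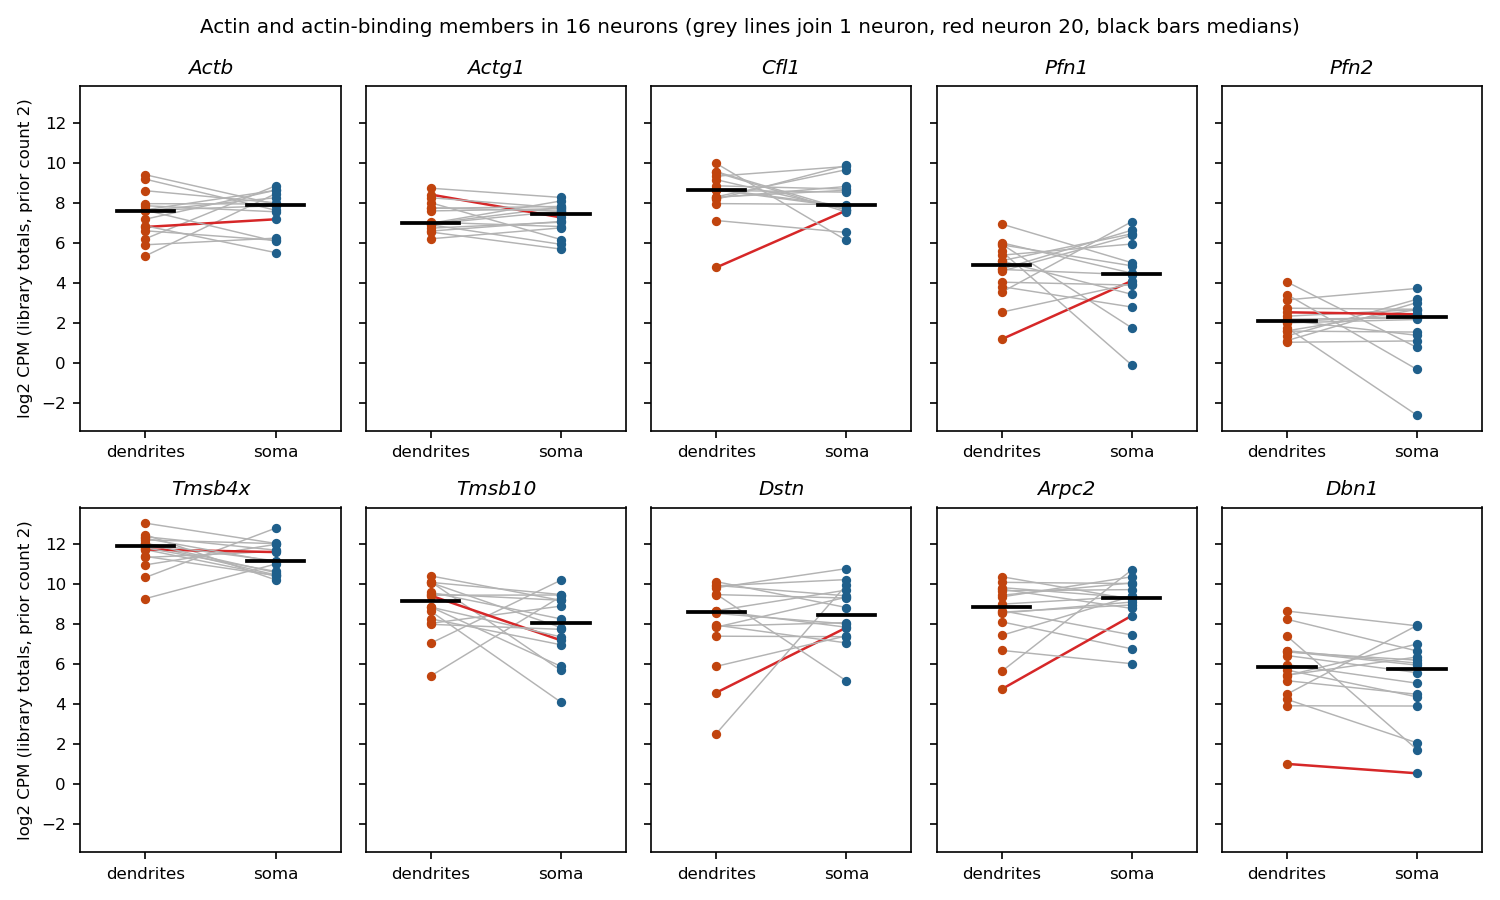
Level of each of the 10 genes, as log2 CPM on library totals with a prior count of 2, in 16 dendrite (left) and 16 soma (right) libraries. Each point is a library, grey lines join the libraries of 1 neuron, red marks neuron 20 and black bars are medians. The compartments overlap for every gene, and Pfn2 has the lowest soma library, at 0 counts in neuron 27.

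Actb, which encodes beta-actin, had between 40.4 and 675 CPM in dendrites, with a median of 195 CPM, and between 45.3 and 460 CPM in soma, with a median of 237 CPM. The compartments overlapped over nearly their whole range, with the lowest dendrites in neuron 15 and the highest in neuron 27. The mean was 222 ± 181 CPM in dendrites and 229 ± 129 CPM in soma (SD, n = 16 each). Dendrites stood higher in 8 of 16 neurons, and the log2 fold change was -0.05 (95% interval -1.33 to 1.22, edgeR adjusted p = 0.999). The sign turned with the processing, to 0.19 with no replicate block and 0.0042 with DESeq2's size factors. On the linear scale the interval, which is not adjusted for the number of genes tested, reached from 0.399-fold to 2.33-fold. The data therefore do not exclude a difference within these bounds.

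Actg1, which encodes gamma-actin, had between 73.2 and 423 CPM in dendrites, with a median of 128 CPM, and between 51.2 and 307 CPM in soma, with a median of 172 CPM. The compartments overlapped here too, and neuron 25 had the highest value in both compartments. Its log2 fold change was 0.14 (95% interval -1.06 to 1.33, edgeR adjusted p = 0.999), and dendrites stood higher in 7 of 16 neurons by TMM and in 8 by library totals. It was 0.75 with no replicate block, 0.036 without neuron 20 and -0.020 without neurons 7, 8 and 9, with edgeR adjusted p of 0.963, 1.00 and 0.999. On the TMM scale the dendrites of neuron 20 led all others, at 11.06 log2 CPM, while on library totals, at 340 CPM, they came after those of neuron 25.

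Actb and Actg1 encode nearly the same protein, and reads from their shared coding sequence or from processed copies could be split between genes by counting rules not stated in the sources used here. Muscle actins, which could also draw such reads, were near the floor. Of Acta1, Acta2, Actc1 and Actg2, 0 of 4 passed the filter, and their summed level had a median of 0 CPM in dendrites and 0.025 CPM in soma, with highest libraries of 31.4 CPM in dendrites and 12.9 CPM in soma.

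Cfl1 encodes cofilin, the main filament-severing protein of neurons. Its dendrites held between 26.9 and 1001 CPM, with a median of 396 CPM, and its somata between 69.4 and 934 CPM, with a median of 234 CPM. The lowest dendrite library was that of neuron 20 and the highest that of neuron 22, which had the lowest soma. The log2 fold change was 0.29 (95% interval -0.76 to 1.33, edgeR adjusted p = 0.999), with dendrites higher in 9 of 16 neurons by TMM. Leaving out neuron 22 or 21 gave 0.12 or 0.18, leaving out neuron 11 or 15 gave 0.47 or 0.46, and limma-voom gave 0.0081. Dstn encodes destrin, a relative of cofilin that also frees subunits from filaments. It ranged from 5.60 to 1119 CPM in dendrites, with a median of 390 CPM, and from 35.9 to 1757 CPM in soma, with a median of 364 CPM. Neuron 22 again held an extreme, with only 6 counts of Dstn in its dendrites. The paired difference there was -7.44 in log2 CPM on library totals. Over all neurons the log2 fold change was -0.25 (95% interval -1.46 to 0.96, edgeR adjusted p = 0.999), and dendrites were higher in 8 of 16. It was -0.033 without neuron 22.

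Pfn1 encodes the profilin found in most cells. It had between 2.09 and 122 CPM in dendrites, with a median of 29.6 CPM, and between 0.764 and 132 CPM in soma, with a median of 21.5 CPM. It had under 10 counts in the dendrites of 2 neurons and the soma of 1. Its highest dendrites, those of neuron 25, held 28 counts in the shallowest library, and the next highest stood at 63.8 CPM. The soma of neuron 21 held 7 counts, and its paired difference of 5.68 in log2 CPM on library totals was the largest for Pfn1. The log2 fold change was 0.15 (95% interval -1.85 to 2.14, edgeR adjusted p = 0.999), the widest interval among the 10 genes. It was -0.30 with no replicate block and -0.17 without neuron 21. Pfn2, the profilin enriched in brain, was sparse in counts, with between 1.87 and 16.3 CPM in dendrites and a median of 4.08 CPM, and between 0 and 12.96 CPM in soma and a median of 4.74 CPM. Counts ran from 1 to 137 in dendrites and from 0 to 177 in soma, and 13 of 16 libraries in each compartment reached 10. The soma at 0 counts, that of neuron 27, allows a level of up to 0.180 CPM by counting error alone, taking 3 counts as the limit. Its log2 fold change was 0.32 (95% interval -1.44 to 2.09, edgeR adjusted p = 0.999), with dendrites higher in 6 of 16 neurons by TMM. Leaving out neuron 27, 28 or 7 gave 0.088, 0.13 or 0.21, and leaving out neuron 15 or 11 gave 0.51 or 0.49. Spike-in totals gave 0.056 and limma-voom 0.67.

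Tmsb4x encodes thymosin beta 4, a small peptide that keeps actin subunits from joining filaments. Its dendrites held between 622 and 8505 CPM, with a median of 3842 CPM, and its somata between 1192 and 7156 CPM, with a median of 2259 CPM. The highest dendrites were those of neuron 25, the shallowest library, and the next highest held 5693 CPM. The median dendrite library lay above most somata, but the ranges overlapped and the lowest library of all was the dendrites of neuron 18. The log2 fold change was 0.57 ± 0.34 (SE, n = 16 neurons; 95% interval -0.12 to 1.27, edgeR adjusted p = 0.999, unadjusted p = 0.102). Dendrites stood higher in 11 of 16 neurons by TMM and in 12 by library totals.

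Tmsb10 encodes thymosin beta 10, a close relative abundant in developing neurons. It ranged from 42.5 to 1366 CPM in dendrites, with a median of 577 CPM, and from 17.02 to 1178 CPM in soma, with a median of 268 CPM. The highest dendrites were again those of neuron 25, and the next highest held 1111 CPM. The lowest dendrites were those of neuron 11 and the lowest soma that of neuron 28. On library totals the paired differences ran from -3.97 to 4.54 in log2 CPM. The log2 fold change was 1.08 ± 0.63 (SE, n = 16 neurons; 95% interval -0.22 to 2.38, edgeR adjusted p = 0.999, unadjusted p = 0.101). Being higher in dendrites in 12 or more of 16 neurons was a property of 4.05% of all tested genes by TMM, and Tmsb10 and Dbn1 were among them. Being higher in at most 4 neurons was a property of 3.89% of tested genes, and of 0 of the 10.

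Neuron 11 weighed on both thymosins: it had the lowest paired difference of each, and without it the fold changes were 0.86 for Tmsb4x and 1.43 for Tmsb10, with unadjusted p of 0.0197 and 0.0248 and adjusted p of 1.00 for both in edgeR's test. With spike-in totals as library sizes the fold change of Tmsb4x was 0.36, and with limma-voom that of Tmsb10 was 0.49. Thymosin beta 4 is also plentiful in microglia, and of 10 microglia markers 6 had 0 counts in all 32 libraries, Aif1, Cx3cr1 and C1qa among them. The summed level of these markers reached at most 20.2 CPM in dendrites and 0.148 CPM in soma. Astrocyte markers, 11 of 12 of which had rows, summed to between 40.3 and 2610 CPM in dendrites, with a median of 380 CPM, and to between 0.648 and 663 CPM in soma, with a median of 211 CPM. Endothelial, mural and fibroblast markers summed to between 0.260 and 796 CPM in dendrites, with a median of 94.0 CPM, and to between 0.0879 and 606 CPM in soma, with a median of 8.69 CPM. The part of such RNA in the values of the thymosins was not tested.

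Arpc2 encodes a core subunit of the Arp2/3 complex. It had between 26.7 and 1332 CPM in dendrites, with a median of 462 CPM, and between 65.0 and 1677 CPM in soma, with a median of 625 CPM. The lowest dendrites were those of neuron 20, while the lowest paired difference, -5.07 in log2 CPM on library totals, was in neuron 15. The log2 fold change was -0.33 (95% interval -1.35 to 0.68, edgeR adjusted p = 0.999), with dendrites higher in 7 of 16 neurons. It was -0.064 without neuron 15. Dbn1, the drebrin gene, ranged from 1.86 to 404 CPM in dendrites, with a median of 57.5 CPM, and from 1.30 to 245 CPM in soma, with a median of 54.8 CPM. Neuron 20 was lowest in both compartments and neuron 22 was highest in dendrites and the next to highest in soma. The medians of Dbn1 were close while its log2 fold change was 0.66 (95% interval -1.05 to 2.37, edgeR adjusted p = 0.999), and dendrites stood higher in 12 of 16 neurons by TMM and in 13 by library totals. The fold change of Dbn1 was 0.38 without neuron 21, whose paired difference of 5.67 in log2 CPM on library totals was its highest.

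**Figure D2:**
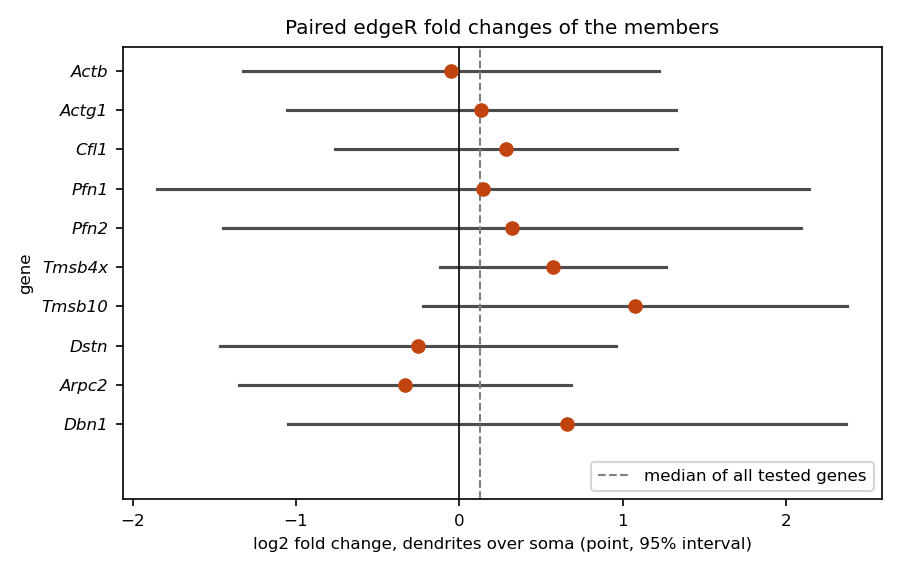
Log2 fold change of each gene, dendrites over soma (point), with its 95% interval (line), from the edgeR fit with the neuron as a block in 16 neurons. The dashed line is the median of all 4916 tested genes, 0.13, and every interval includes 0.

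The 10 genes had small spreads between neurons in both compartments. The SD of TMM log2 CPM over 16 libraries lay between 0.61 for Cfl1 and 2.05 for Dstn in dendrites, and between 0.72 for Tmsb4x and 1.95 for Dbn1 in soma. Medians over the 10 genes were 1.24 in dendrites and 1.37 in soma, and over all tested genes 3.22 in dendrites and 3.46 in soma. Low counts add to the spread, and tested genes with a mean CPM at or above that of Actg1, 1164 in number, had medians of 2.10 in dendrites and 2.38 in soma. The SD was larger in dendrites for 4 of 10 genes and for 38.5% of all tested genes. On library totals Cfl1 had 1.21 in dendrites in place of 0.61, with the dendrites of neuron 20 lowest, and Actg1 had 0.75 in place of 1.17. The difference in spread between the 10 genes and others was not tested.

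**Figure D3:**
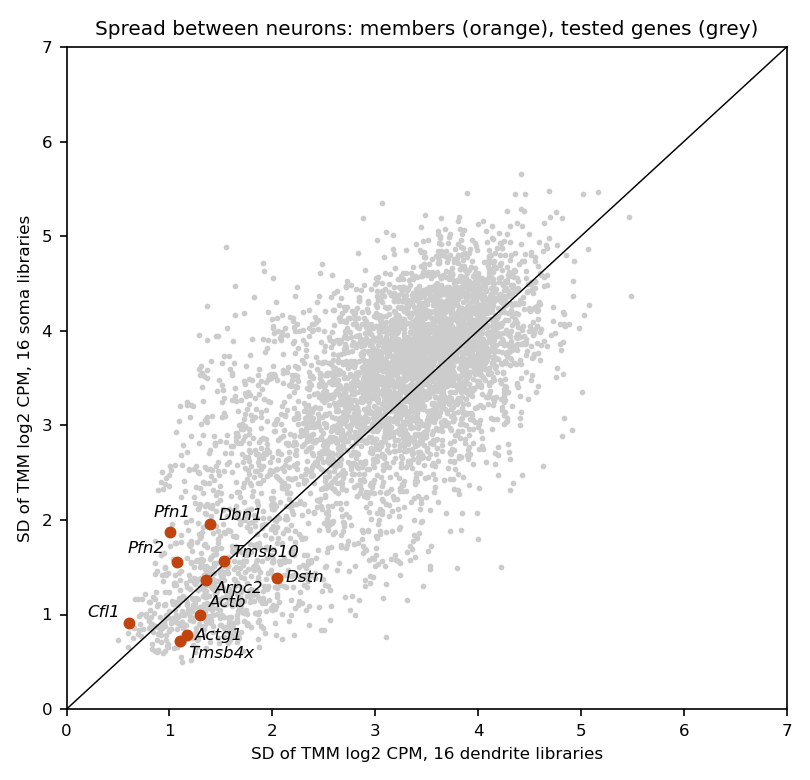
SD of TMM log2 CPM over 16 dendrite libraries (x axis) and over 16 soma libraries (y axis). Grey points are all tested genes, orange points the 10 genes, and the line marks equal spread. The 10 genes lie in the lower left, with SDs from 0.61 to 2.05 in dendrites and from 0.72 to 1.95 in soma.

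Among the 10 genes the correlation between a neuron's dendrites and its soma was highest for Actg1. On library totals Actg1 had a Spearman correlation of 0.535 between dendrites and soma over 16 neurons, 0.568 without neuron 20 and 0.703 without neurons 7, 8 and 9. Dbn1 stood at 0.379, Dstn at 0.332 and Arpc2 at 0.285, while Actb stood at 0.0235 and Cfl1 at -0.215. The median over all tested genes was 0.0795. By TMM Actg1 stood at 0.594, Dbn1 at 0.391, Dstn at 0.315, Arpc2 at 0.256, Actb at 0.112 and Cfl1 at -0.424. The TMM median over all tested genes was 0.0706. On library totals without neurons 7, 8 and 9, Dbn1 stood at 0.555, Dstn at 0.253, Arpc2 at 0.126, Actb at -0.137 and Cfl1 at -0.0604. Both libraries of a neuron share its culture and day, and the values are a description.

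Pairs of related genes were compared within libraries, as differences of TMM log2 CPM with a prior count of 2. The scaling between libraries cancels there except through the prior count, which weighs on genes with few counts. The log2 ratio of Actb to Actg1 averaged 0.06 ± 1.33 in dendrites and 0.35 ± 1.21 in soma (SD, n = 16 each), from -2.10 to 2.98 in dendrites and from -2.07 to 3.16 in soma. Actb had the higher count in 8 of 16 dendrites and in 12 of 16 somata. Since the counts are not per length, only the difference of a ratio between compartments is compared. That difference, dendrites minus soma, was -0.28 ± 1.69 (SD, n = 16 neurons, exact sign-flip permutation p = 0.509, adjusted over the 4 ratios 0.679).

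The ratio of Cfl1 to Dstn averaged 0.40 ± 2.45 in dendrites and -0.36 ± 1.32 in soma. Its highest dendrites were those of neuron 22, at 7.43, which also had the lowest soma, at -3.84. The difference, dendrites minus soma, was 0.76 ± 3.22 (exact sign-flip permutation p = 0.445, adjusted 0.679), higher in dendrites in 9 of 16 neurons, and it was 0.058 without neuron 22. Pfn1 to Pfn2 averaged 2.49 ± 1.42 in dendrites and 2.67 ± 2.69 in soma, with a difference of -0.17 ± 3.01 (exact sign-flip permutation p = 0.822, adjusted 0.822). It turned to 0.029 without neuron 20 and to 0.28 without neuron 27, the soma of which had 0 counts of Pfn2. Tmsb4x had more counts than Tmsb10 in all 16 dendrite and all 16 soma libraries. Their log2 ratio averaged 2.83 ± 0.98 in dendrites and 3.31 ± 1.59 in soma, with a difference of -0.48 ± 1.63 (exact sign-flip permutation p = 0.259, adjusted 0.679). Each of the 4 differences was smaller than its SD between neurons.

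**Figure D4:**
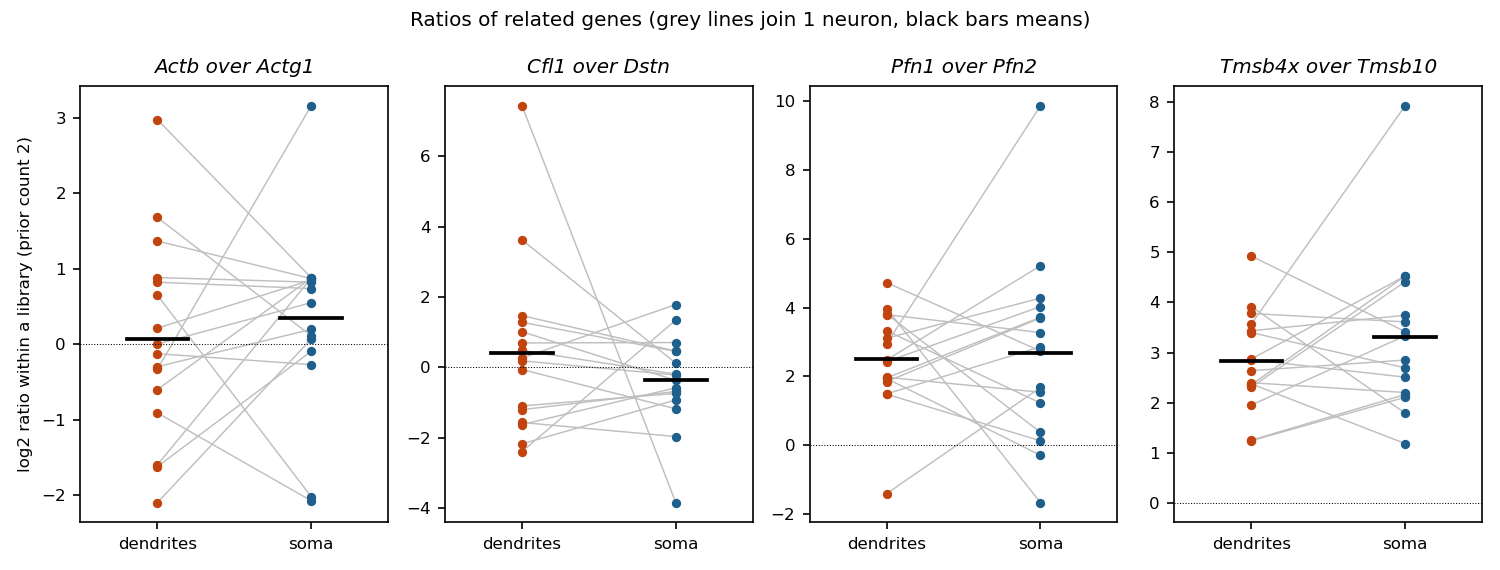
Log2 ratio, with a prior count of 2, of 4 pairs of related genes within each library, dendrites left and soma right. Grey lines join the libraries of 1 neuron, black bars are means and the dotted line marks equal counts. Tmsb4x over Tmsb10 stays above 0 in every library, and Cfl1 over Dstn has its highest dendrite library, 7.43, and its lowest soma, -3.84, in neuron 22.

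Levels of the 10 genes were also compared with each other across libraries. Over the 32 libraries, centred within compartments on library totals, 37 of the 45 pairs among the 10 genes had a positive Spearman correlation, with a median of 0.215, against 67.6% of all pairs of tested genes and a median of 0.0907. By TMM, 33 of the 45 pairs were positive, with a median of 0.124, against 60.2% of all pairs and a median of 0.0532. The highest on library totals was 0.654 for Cfl1 with Tmsb10, which was 0.693 without neuron 20 and 0.569 by TMM. Cfl1 with Dbn1 followed at 0.573, with 0.508 without neuron 20 and 0.379 by TMM, and then Tmsb4x with Tmsb10 at 0.548, with 0.507 by TMM. Dstn with Arpc2 stood at 0.486, while Tmsb4x with Arpc2 was the lowest pair at -0.342. Libraries share depth and scaling, and these values are a description.

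The genes most like Actb over the 32 libraries by TMM were Thra, a thyroid hormone receptor gene, with a Spearman correlation of 0.648, and the translation elongation factor genes Eef1a1, with 0.641, and Eef2, with 0.635. Among those most like Actg1 were the calmodulin gene Calm2, with 0.706, and Fxyd6, a regulator gene of the sodium pump, with 0.672. On library totals Calm2 stood at 0.647 and Fxyd6 at 0.546 with Actg1, and Thra at 0.646, Eef1a1 at 0.559 and Eef2 at 0.570 with Actb. They are among the extremes over 4915 other genes, with medians of -0.090 for Actb and -0.081 for Actg1.

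Other genes of the actin system were grouped by role and gave 0 calls in edgeR's test, as did all tested genes. Among other Arp2/3 subunits, 7 of 8 tested genes had a negative fold change, as had Arpc2, with a median of -0.49, against 45.2% negative and a median of 0.13 over all tested genes. The count was 7 of 8 under each of the other scalings, 6 of 8 with no replicate block, and between 5 and 7 of 8 when single neurons were left out, with 5 without neuron 21. The positive one, named after its value was seen, was Arpc5l at 0.77 ± 0.73 (SE). Actr3, which encodes the Arp3 subunit, was at -1.09 ± 0.83 (SE, n = 16 neurons) and averaged 133 ± 149 CPM in dendrites and 198.7 ± 153 CPM in soma. Arpc5 was at -0.48 ± 0.45, and the Arp3 relative Actr3b at -2.49 ± 1.53, with 10 counts in 4 dendrite and 11 soma libraries. For all of them the adjusted p was 0.999 in edgeR's test.

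Capping proteins and other proteins of filament ends had 5 of 7 tested genes negative, with a median of -0.36. Capza2, a subunit of the capping protein of barbed ends, was at -1.18 ± 0.76, with 244 ± 178 CPM in dendrites and 507 ± 393 CPM in soma (SD, n = 16 each). Tmod1, a tropomodulin that caps the other end, was at -3.41 ± 2.05 and reached 10 counts in 6 dendrite and 9 soma libraries, and Capzb was at -0.36 ± 0.44. The negative count was 4 of 7 with DESeq2's size factors and 6 of 7 with spike-in totals, and without single neurons it lay between 4 of 8, without neuron 8, and 7 of 7, without neuron 26. Leaving out neuron 8, 11, 28 or 22 gave medians of -0.18, -0.19, -0.20 or -0.22, and the mean paired differences of the sign-flip test gave -0.07. The edgeR adjusted p was 0.999 for all 3.

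Genes that handle subunits or regulate cofilin had 6 of 8 tested genes positive and a median of 0.18. The sign of the median turned to -0.11 with no filter, where 5 of 11 were positive, and to -0.016 with the stricter filter, where 1 of 3 was, while it was 0.50 with DESeq2 and 0.93 without neurons 7, 8 and 9. Without single neurons it lay between 0.12, without neuron 26, and 0.54, without neuron 14. Twf1, which encodes the subunit-binding protein twinfilin, had a log2 fold change of 4.66 ± 1.90 (SE; edgeR adjusted p = 0.999, unadjusted p = 0.0217) with dendrites higher in 13 of 16 neurons. It ranged from 0 to 1162 CPM in dendrites, with a median of 14.9 CPM, and from 0 to 105 CPM in soma, with a median of 0.613 CPM. Twf1 reached 10 counts in 10 dendrite and 7 soma libraries, and had 0 counts in 3 dendrite and 4 soma libraries. DESeq2's Wald test, which called 403 genes in this comparison, called it at 5.22 with an adjusted p of 1.91e-05. The LIM kinases, which switch cofilin off, stood at 1.81 ± 1.60 for Limk1 and 1.52 ± 1.34 for Limk2.

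Nucleation factors had 6 of 11 tested genes positive and a median of 0.09. The median was -0.07 with spike-in totals, -0.034 without neuron 14, -0.096 without neuron 18 and -0.12 without neurons 7, 8 and 9. It was 0.39 with limma-voom, where 8 of 11 were positive, 0.27 without neuron 22 and 0.23 with no replicate block. Abi2 was at 1.09 ± 0.79 and Nckap1 at -0.87 ± 0.64, both of the WAVE complex. The WASP-interacting gene Wipf3 was at 1.43 ± 1.25 and reached 10 counts in 7 dendrite and 7 soma libraries. Side-binding and crosslinking proteins had 11 of 17 positive and a median of 0.29, with the drebrin-like gene Dbnl at 2.16 ± 1.43, the membrane protein gene Palm at 0.96 ± 0.94 and the myosin light chain gene Myl6 at 0.75 ± 0.84. The median of the side-binding list was 0.048 with the stricter filter, where 7 of 13 were positive. It was 0.13 without neurons 7, 8 and 9, where 9 of 16 were, 0.14 with the sign-flip test and 0.43 without neuron 25. Over all tested genes 54.8% were positive, with a median of 0.13. DESeq2 called Dbnl, at 2.26 and an adjusted p of 0.0458. The edgeR adjusted p was 0.999 for each gene named from these lists.

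Igf2bp1, whose protein binds the Actb zipcode, had 0 counts in all 16 soma libraries, which allows up to 0.013 CPM over their summed counts. In dendrites it had 0 counts in 15 of 16 libraries and under 10 counts, at 0.698 CPM, in the remaining library. A difference of Igf2bp1 between the compartments cannot be read from 1 such library. Of the other zipcode-related genes, Khsrp and Elavl4 were tested. Khsrp reached 10 counts in 7 dendrite and 8 soma libraries, and Elavl4 in 10 and 15. Khsrp stood at 1.00 ± 1.97 and Elavl4, a neuronal RNA-binding protein gene, at -0.53 ± 1.29 (SE, n = 16 neurons; edgeR adjusted p = 0.999 for both).

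**Figure D5:**
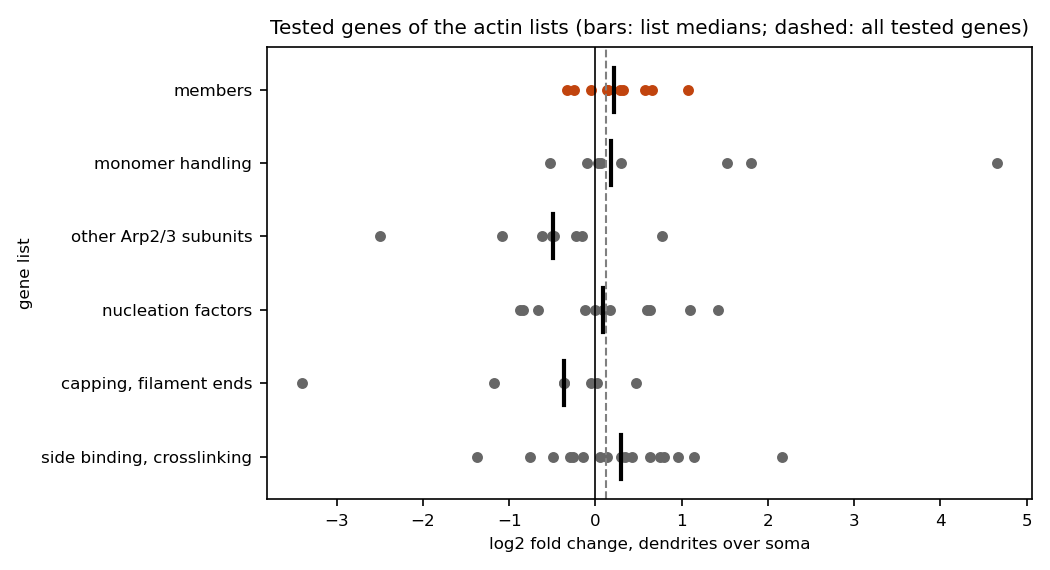
Log2 fold change, dendrites over soma, of the tested genes of each list, 1 point a gene, with a bar at the list's median. The 10 genes are in orange, the other lists in grey, and the dashed line is the median of all tested genes, 0.13. Other Arp2/3 subunits have 7 of 8 points left of 0.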

How the data were processed

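The authors deposited whole-number counts per gene symbol for each of 32 libraries, with 92 spike-in rows of the ERCC set, and these were used as raw counts. Per the submitters' processing notes, the genome build was rn6. Which aligner and annotation were used, and whether counting used strand, are not given in the sources used here. The spike-ins were left out of totals and tests, and served only as an alternative scaling.

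In R 4.3.3, genes passed filterByExpr by compartment (minimum count 10). Dendrites were tested against soma with edgeR 4.0.16 (TMM, glmQLFit robust, glmQLFTest) with the neuron as a block, with Benjamini-Hochberg adjustment over all 4916 tested genes and a threshold of 0.05. The SE was taken as the size of the log2 fold change divided by the root of F. The series text says that both samples with 1 number come from 1 cell. Their centred profiles had a mean Spearman correlation of 0.0678 within neurons and -0.00054 between neurons, and 4 of 16 neurons had one over 0.1. Between libraries of 1 compartment, chi-square per degree of freedom was at least 54.7 in dendrites and 268 in soma. For ratios, exact sign-flip permutation tests were used, two-sided, whose smallest p is 3.05e-05. Ratios were also run with prior counts of 0.5 and 10, and with at least 20 counts of the pair in both libraries. Those runs are not reported here. Alternatives were library totals, spike-in totals or DESeq2 size factors for scaling, a fit with no replicate block, filtering not at all or at 10 counts in 28 libraries, DESeq2 1.42.0, limma-voom (limma 3.58.1), a sign-flip test per gene and fits without neurons. Correlations and spreads on library totals, and list counts per setting, were added after seeing the data. Scripts were tested on simulated data.

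The genes, lists and tests were chosen with earlier results of these data known. Named genes are the 10, up to 3 tested genes of each list with the smallest p, and the 3 most like Actb and Actg1. Some genes and 1 list that this rule names are not reported here. Amplified reads are not independent molecules, so limits from counts cover counting error only. The p-values of the paired tests set the mean difference between compartments against its variation over neurons. Variation from the amplification of each library is part of that variation and was not measured apart.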

Additional observations from a re-analysis of the deposited data

How the results depend on the processing

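EdgeR's test called 0 of 4916 genes (129 at an unadjusted p under 0.05), 1 of 13879 with no filter on low counts (Adam1a, not one of the 10 genes), and DESeq2's Wald test 403, of which 273 were higher and 130 lower in dendrites. The other settings, no replicate block among them, and the fits without single neurons gave 0. None of the 10 genes was called under any setting run, and the lowest adjusted p was 0.191, for Tmsb10 with DESeq2. The log2 fold change of Actb turned to 0.19 with no replicate block, 0.0042 with DESeq2's size factors, 0.0035 with DESeq2, 0.019 without neurons 7, 8 and 9, and ranged from -0.26 to 0.21 without single neurons, with 0.075, 0.21, 0.20, 0.034 and 0.0051 without neurons 7, 11, 15, 22 and 28. Actg1 turned to -0.020 without neurons 7, 8 and 9. Pfn1 turned to -0.30 with no replicate block, -0.19 with limma-voom, and -0.12, -0.17 and -0.043 without neurons 13, 21 and 26, with 0.43 at most, without neuron 11. The cause was not tested. Without single neurons the ratio differences ranged from -0.48 to -0.069 for Actb over Actg1, 0.058 to 1.06 for Cfl1 over Dstn, -0.55 to 0.28 for Pfn1 over Pfn2 (0.029 without neuron 20) and -0.66 to -0.22 for Tmsb4x over Tmsb10. With no replicate block the ratio differences had permutation p of 0.535, 0.2996, 0.831 and 0.322 in that order. Pfn2 did not pass the stricter filter and has no value there. Pfn2 had under 10 counts in 3 dendrite and 3 soma libraries, and the soma at 0 counts, that of neuron 27, had more gene counts than the median soma.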
